A study of Mus musculus with 8 samples.

Results

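The transcriptome of the mouse prefrontal cortex after injection of a control virus was described from 4 of the 8 RNA sequencing libraries of the study, namely those whose titles name GFP. All 4 came from bulk prefrontal tissue of C57BL6/J mice of 6 to 8 weeks injected with AAV9, an adeno-associated viral vector, for green fluorescent protein (GFP), and no hairpin is named for them. The titles assign 2 of them to the Adnp experiment and 2 to the Pogz experiment, and they are called Adnp-set 1, Adnp-set 2, Pogz-set 1 and Pogz-set 2 here. Values of a gene in the 4 libraries are always given in that order. The labels call the samples biological duplicates and do not say whether the mice of both sets were treated or sequenced together. Since every library came from an injected animal, the levels below are those of virus-injected cortex, and no uninjected animal was analysed here. The labels name neither the promoter that drove GFP nor the dose of virus nor the time after injection.

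The prefrontal cortex holds glutamatergic projection neurons in layers, several classes of GABAergic interneurons, astrocytes, oligodendrocytes and their precursors, microglia and blood vessels. It receives dopamine, serotonin, noradrenaline and acetylcholine from cell bodies that lie in other brain regions, so that receptors for these transmitters are made locally while most of the enzymes that synthesise them are not. Bulk RNA sums over all of these cells, and fewer cells of a type and less RNA per cell cannot be told apart in it.

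Total counts in named genes were 62999525, 65104567, 27501722 and 69002749. Levels are given as CPM, the count of a gene relative to the total of its library after TMM scaling (trimmed mean of M-values), and levels of different genes are compared only as CPM per kilobase of annotated exon. Of 23393 named genes, 13817 reached 1 CPM in all 4 libraries and 3484 had no count in any. In the following, 3 counts, taken as the floor of detection, correspond to 0.0488, 0.0472, 0.106 and 0.0427 CPM. A mean of 100 CPM was exceeded by 2377 genes and a mean of 1000 CPM by 78. The 100 most abundant genes took 15.3% ± 0.519 (SD, n = 4) of the counts, and 1072 genes took 50% of them. Among the genes at 1 CPM in all libraries the median level was 8.88 CPM per kilobase, with a 90th percentile of 45.7 and a 99th percentile of 207 CPM per kilobase.

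The highest CPM, without regard to length, was that of Malat1, a nuclear non-coding RNA, at 11660, 10460, 11880 and 12700 CPM. Other genes of high CPM included the astrocytic glutamate transporter gene Slc1a2, with 4192, 3283, 3146 and 3457 CPM. Snap25, a membrane fusion protein of the presynaptic terminal, stood at 3458, 3448, 2862 and 2709 CPM. In these 3 genes the highest library exceeded the lowest by 1.21-fold to 1.33-fold. The 25 genes of highest mean CPM also held the axonal motor subunits Kif5a and Kif1a, the spectrins Sptan1 and Sptbn1, the microtubule-associated protein Map1b, the glycolytic enzyme Aldoa, the vesicle calcium sensor Syt1, the dynein heavy chain Dync1h1 and the prohormone-processing enzyme Cpe. Per kilobase of exon, protein-coding genes of high level included Snap25 with 1396 ± 175 (SD, n = 4), Calm2 with 1325, Aldoa with 1196 and Eef1a1 with 1065 CPM per kilobase.

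Of 12 genes of the non-coding RNA list with a mean of at least 1 CPM, 4 spread over 2-fold, and 3 of these had a low value in Pogz-set 1. Rpph1, the RNA of ribonuclease P, stood at 2400, 2865, 645 and 2577 CPM. Rmrp, the RNA of a related enzyme, stood at 1378, 1395, 420 and 1411 CPM, and the ribosomal RNA precursor Rn45s at 2237, 3290, 1297 and 3854 CPM. Pogz-set 1, the library with the fewest counts, was lowest in all 3, while its Malat1 value lay inside the range of the other libraries. The other 3 libraries lay between 2400 and 2865 CPM for Rpph1 and between 1378 and 1411 CPM for Rmrp.

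The tissue label was checked against markers of cortical neurons. All 14 general neuronal markers reached 1 CPM in every library, with a median of 194 CPM per kilobase against 8.24 over all 14442 genes with a mean of at least 1 CPM. The vesicular glutamate transporter of cortical projection neurons, Slc17a7 (chromosome 7, 45163949 to 45176142, GRCm38), had 1166, 1153, 919 and 1064 CPM, or 369 ± 39 CPM per kilobase (SD, n = 4). The transporter that dominates in thalamus and brainstem, Slc17a6, had 4.44 ± 0.82 CPM per kilobase. Other genes of cortical excitatory neurons were the calmodulin-binding protein Nrgn with 268 CPM per kilobase, the kinase subunits Camk2a with 262 and Camk2b with 168 CPM per kilobase, and the transcription factors Neurod6 with 54.0, Neurod2 with 20.1, and Tbr1 with 20.02 CPM per kilobase. The spread of a gene is given here as the ratio of its highest to its lowest library, computed on log2(CPM + 0.5). None of the 11 genes of this list spread over 2-fold, against 5.32% of the 14442 genes and 1.16% of those with 20 to 100 CPM. With 11 genes this count does not set the list apart.

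Genes of upper and deep layers were both present. Among 14 genes listed for upper layers the median was 8.17 CPM per kilobase, with Mef2c at 332, Lamp5 at 68.4, Rasgrf2 at 45.5, Cux2 at 7.93 and Rorb at 6.89 CPM per kilobase. Among 15 genes listed for deep layers it was 9.15 CPM per kilobase, with Pcp4 at 338, Crym at 84.7, Tle4 at 23.7, Fezf2 at 15.4, Bcl11b at 9.15 and Foxp2 at 3.94 CPM per kilobase. The deep-layer genes differed more between libraries. Pcp4, a calmodulin regulator, stood at 256, 272, 146 and 194 CPM. Syt6 was at 39.2, 38.7, 27.9 and 31.8 CPM, and Foxp2 at 33.1, 29.8, 22.7 and 25.7 CPM, with both Pogz-set libraries below both Adnp-set libraries in each of the 3. Tshz2, a zinc finger gene, went the other way, at 34.5, 32.8, 90.7 and 30.1 CPM, so that Pogz-set 1 alone stood high. Of the 14 upper-layer genes 0 spread over 2-fold, and of the 14 deep-layer genes with a mean of 1 CPM 2 did, Tshz2 and Cplx3.

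GABAergic interneurons were represented by 26 listed genes, of which 24 reached 1 CPM in all libraries and 0 spread over 2-fold. Gad1, which makes GABA, stood at 252, 269, 271 and 269 CPM, a range of 1.08-fold. Of the genes that mark interneuron classes, Sst had 168 ± 17, Pvalb 35.8 ± 4.1 and Vip 29.7 ± 1.1 CPM per kilobase (SD, n = 4). Sst was thus the highest of the 3 by a gap wider than the spread, and the SD intervals of Pvalb and Vip lay close together without overlap. Reln stood at 14.5, Lhx6 at 4.42, Htr3a at 3.44 and Ndnf at 1.26 CPM per kilobase. These are levels of transcripts and not numbers of cells.

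Neuropeptide genes covered a wide range of levels. Cck led with 330 ± 24 CPM per kilobase (SD, n = 4), followed by the granule protein gene Chgb with 204 ± 34, Sst with 168 ± 17, Npy with 140 ± 32 and Scg2 with 105 ± 17 CPM per kilobase. Sst and Npy overlapped within their spread. Penk stood at 22.1, Tac1 at 10.9, Pdyn at 3.59 and Crh at 2.92 CPM per kilobase. The 8 genes listed for the hypothalamus had a median of 0.113 CPM per kilobase, and 0 of them reached 1 CPM in every library. Among the lowest, Oxt was at 0, 0.126, 0 and 0.0854 CPM, Avp at 0.0163, 0.0943, 0 and 0 CPM, and Hcrt at 0.163, 0.157, 0.0706 and 0.142 CPM.

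**Figure D1:**
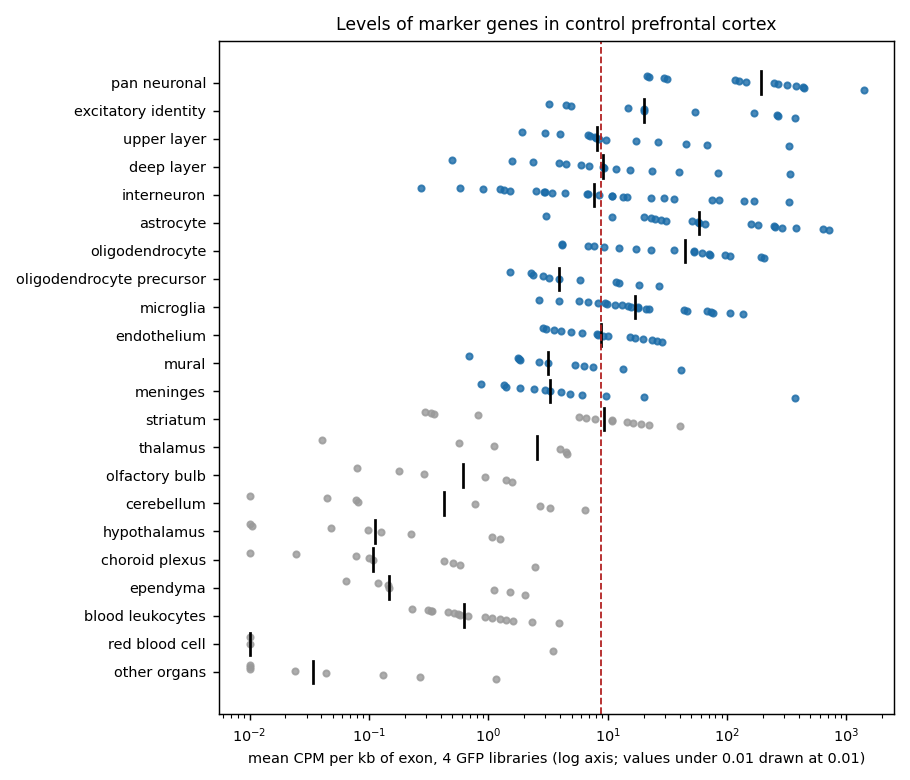
Mean level of each listed marker gene in the 4 GFP libraries (points, CPM per kilobase of exon, log axis) with the median of each list (black bar). The dashed line is the median of all genes detected at 1 CPM in every library, 8.88 CPM per kilobase, and lists of cells or regions outside the cortical tissue are grey. The general neuronal list has the highest median, 194 CPM per kilobase, and the hypothalamus, choroid plexus, ependyma, red blood cell and other-organ lists have medians under 0.2.

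Lists of tissues outside the cortex differed in level. The median of the choroid plexus list was 0.108 CPM per kilobase, with its defining transcript Ttr at 0.0488, 0.220, 0.424 and 1.34 CPM and Otx2 listed at 0. The median was 0.149 CPM per kilobase for ependyma, 0.113 for hypothalamus, 0.427 for cerebellum and 0.618 for olfactory bulb. The cerebellar granule cell subunit Gabra6 had at most 0.0163 CPM. Alb of liver, Ins2 of pancreas and Cyp3a11 were listed at 0 in every library. The 6 genes listed for the thalamus had a median of 2.54 CPM per kilobase, 5 of them reached 1 CPM in every library, and their summed CPM was 37.5, 45.9, 55.1 and 50.7. The 14 striatal genes measured had a median of 9.32 CPM per kilobase, against 8.24 over all genes with a mean of at least 1 CPM, and 11 of them reached 1 CPM in every library. These 14 ran from Pde1b at 40.6 down to the receptor gene Drd2 at 0.293 CPM per kilobase. Between them, Adcy5 stood at 19.1, Ppp1r1b at 16.2 and Adora2a at 0.827 CPM per kilobase. Drd1a, another receptor gene of the striatum, had 7.84 CPM per kilobase. Cortical neurons express some of these genes too, and a share of striatal tissue in the samples was not tested. All 4 hemoglobin genes in the files were listed at 0. These genes are near-identical pairs, for which the counting of shared reads is not given in the sources used here, so that no absence of blood can be read from them. The erythroid gene Alas2 had 6.54, 6.45, 7.84 and 7.32 CPM.

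Ionotropic glutamate receptors carry fast excitation, AMPA receptors through GluA subunits and NMDA receptors through GluN subunits. Among the AMPA subunits, Gria2, which sets the calcium permeability of the channel, was highest at 110 ± 8.4 CPM per kilobase (SD, n = 4). It was followed by Gria1 at 88.7 ± 9.6 and Gria3 at 80.2 ± 11 CPM per kilobase, which overlapped within their spread, and Gria4 at 30.7 ± 0.18 CPM per kilobase. Among the NMDA subunits, the obligatory Grin1 had 44.1 ± 2.9 and Grin2a 40.0 ± 4.0 CPM per kilobase, again within their spread. Grin2b had 21.3 ± 2.1, Grin3a 8.81 ± 0.55, Grin2c 7.32 ± 0.18, Grin2d 1.16 ± 0.16 and Grin3b 0.189 ± 0.042 CPM per kilobase. Metabotropic receptors were led by Grm3 at 82.4 ± 7.5 and Grm5 at 51.8 ± 1.4 CPM per kilobase, and Grm6, a receptor of the retina, had at most 0.141 CPM. Kainate subunits ran from Grik5 at 26.8 and Grik3 at 18.5 to Grik4 at 5.003 CPM per kilobase. Of the 24 glutamate receptor genes with a mean of at least 1 CPM, 0 spread over 2-fold, and their median range was 1.17-fold against 1.23-fold over all genes. In log2 this median was 0.232, close to the 0.246 of genes with 20 to 100 CPM and 0.241 at 100 CPM or more.

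GABA-A receptors are pentamers, in cortex mostly of alpha, beta and gamma subunits. Among the alpha subunits described here, Gabra3 stood at 49.7 ± 5.4 CPM per kilobase (SD, n = 4), Gabra4 at 37.6 ± 1.5, Gabra5 at 27.3 ± 5.2 and Gabra2 at 7.55 ± 2.5 CPM per kilobase. Of the beta subunits, Gabrb2 had 143 ± 9.0 and Gabrb1 4.37 ± 0.47 CPM per kilobase. Of the gamma subunits, Gabrg1 had 6.54 ± 0.27 and Gabrg3 2.28 ± 0.077 CPM per kilobase. The extrasynaptic subunit Gabrd stood at 31.7 ± 1.6 CPM per kilobase. Both subunits of the metabotropic receptor were abundant, Gabbr1 with 158 ± 6.2 and Gabbr2 with 58.0 ± 5.4 CPM per kilobase. The chloride exporter Slc12a5, which keeps GABA inhibitory in mature neurons, had 87.9 ± 8.6 and the importer Slc12a2 15.0 ± 1.1 CPM per kilobase. The rho and epsilon subunits Gabrr1, Gabrr3 and Gabre stayed under 0.1 CPM per kilobase.

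**Figure D2:**
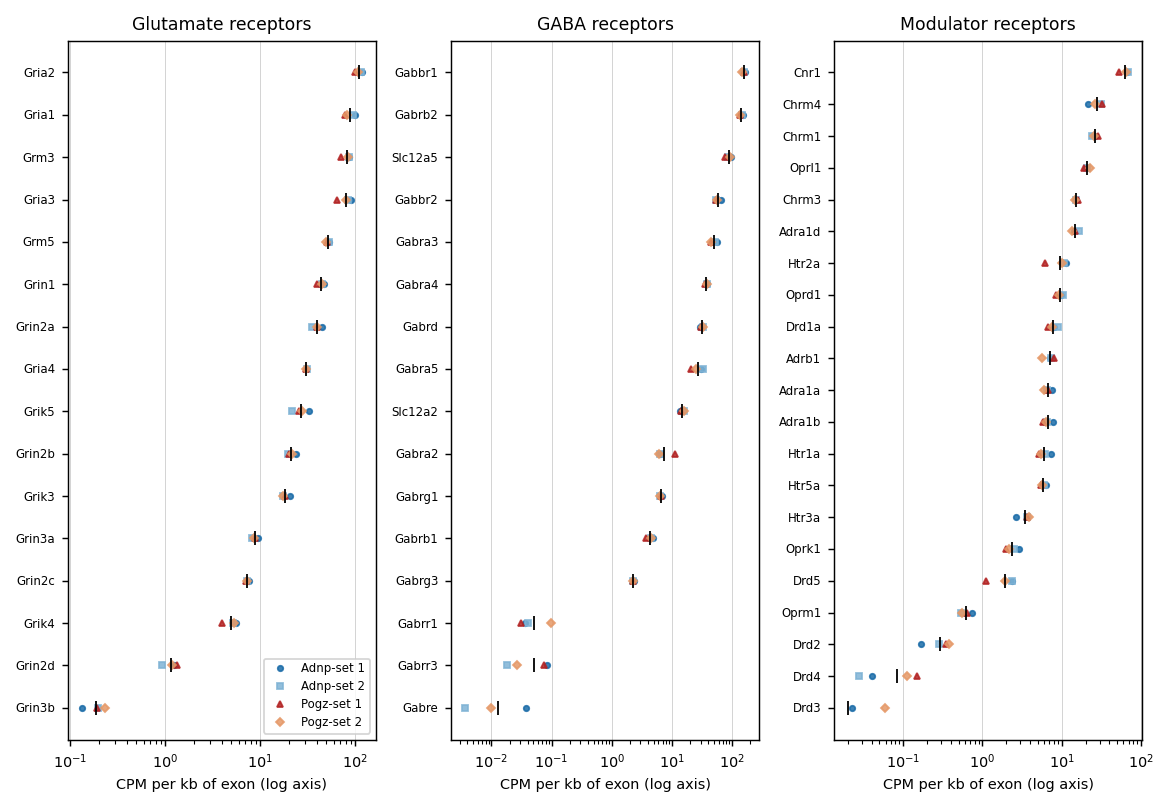
Level of the glutamate, GABA and modulator receptor genes named in the text in each GFP library (coloured symbols, CPM per kilobase of exon, log axis) with the mean of the 4 (black tick), ordered by mean within each panel. Genes under 0.01 CPM per kilobase are left out, and a library at 0 has no symbol. Symbols of one gene lie close together in comparison with the distance from the top to the bottom of a family, as for Gria2 at 110 and Grin2d at 1.16 CPM per kilobase, and Gabra2 is set apart by Pogz-set 1.

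Postsynaptic scaffold and auxiliary genes were led by Dlg4, which encodes PSD-95, with 73.6 ± 6.2 CPM per kilobase (SD, n = 4). The AMPA receptor auxiliary subunit Cnih2, of the same list, had 70.9, Dlgap1 68.1 and Dlg2 63.5 CPM per kilobase. The Shank scaffolds lay together at 15.3 ± 5.6, 14.4 ± 2.3 and 14.6 ± 2.3 CPM per kilobase for Shank1, Shank2 and Shank3. Shank1 stood at 225, 99.4, 124 and 153 CPM, high in Adnp-set 1, and was the only one of the 26 genes of the list to spread over 2-fold. Presynaptic genes had a median of 122 CPM per kilobase and 0 of 23 spread over 2-fold. After Snap25, the highest were Syt1 at 442, Syp at 432, Rab3a at 291 and Nsf at 288 CPM per kilobase. The synaptotagmin of fast-spiking terminals, Syt2, had 2.42 CPM per kilobase. The long active zone genes Bsn and Pclo stood at 824, 481, 649 and 578 CPM and at 778, 505, 665 and 594 CPM, both highest in Adnp-set 1 and lowest in Adnp-set 2.

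Voltage-gated sodium channels start the action potential. Their alpha subunits were Scn2a1 at 108 ± 8.3, Scn8a at 45.5 ± 4.1, Scn1a at 38.5 ± 3.5 and the embryonic Scn3a at 13.2 ± 1.0 CPM per kilobase (SD, n = 4), of which Scn8a and Scn1a overlapped within their spread. Calcium channel alpha subunits were led by Cacna1e at 33.9 and Cacna1a at 19.7 CPM per kilobase, and the skeletal muscle subunit Cacna1s had 0.182 CPM per kilobase. Among the pacemaker channels Hcn2 stood at 20.6, Hcn3 at 2.76 and Hcn4 at 0.363 CPM per kilobase. All 31 potassium channel genes reached 1 CPM in every library, 0 spread over 2-fold, and the highest were the inward rectifier Kcnj4 at 70.1 ± 3.4 and the axonal channel Kcna1 at 65.7 ± 7.5 CPM per kilobase, within their spread of each other. Kcnc2, a channel that permits fast firing, followed at 55.8 ± 7.3 CPM per kilobase.

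Lists of receptors for modulators had medians of 0.293 for dopamine, 2.71 for serotonin, 4.36 for noradrenaline and 7.26 CPM per kilobase for acetylcholine, nicotinic receptors included. The 5 dopamine receptor genes in the files ranged from Drd1a at 7.84 ± 0.98 and Drd5 at 1.93 ± 0.59 CPM per kilobase down to Drd2 at 0.293, Drd4 at 0.0830 and Drd3 at 0.0203 CPM per kilobase. Drd1a stood at 28.5, 32.0, 23.9 and 26.3 CPM. Serotonin receptors were led by Htr2a at 9.56 ± 2.3, Htr1a at 6.04 ± 0.89 and Htr5a at 5.86 ± 0.32 CPM per kilobase, of which the last 2 overlapped. Htr2a was at 63.1, 60.1, 34.4 and 56.9 CPM, low in Pogz-set 1. The alpha-1 adrenergic receptors Adra1d, Adra1a and Adra1b had 14.6, 6.72 and 6.63 CPM per kilobase and the beta receptor Adrb1 7.03 CPM per kilobase. The highest levels in these 4 lists were those of 3 muscarinic receptors, with Chrm4 at 27.8 ± 5.1, Chrm1 at 26.3 ± 1.8 and Chrm3 at 15.3 ± 0.52 CPM per kilobase. The cannabinoid receptor Cnr1 had 63.0 ± 6.9 CPM per kilobase, and the opioid receptors had 20.6 for Oprl1, 9.46 for Oprd1, 2.38 for Oprk1 and 0.619 for Oprm1 CPM per kilobase.

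The 14 genes listed for making, carrying or degrading the modulators had a median of 0.346 CPM per kilobase, and 7 of them reached 1 CPM in every library. Among the low members, the dopamine transporter Slc6a3, the noradrenaline transporter Slc6a2 and the serotonin transporter Slc6a4 had 0.0927, 0.00620 and 0.0505 CPM per kilobase. Tyrosine hydroxylase, Th, had 3.25, 3.91, 2.26 and 2.09 CPM, and the serotonin-synthesising enzyme Tph2 had 0.341, 0.519, 1.70 and 0.797 CPM. The choline acetyltransferase gene Chat stayed between 0.299 and 0.487 CPM. The degrading enzymes Maoa and Maob, which are made in the target tissue, stood at 11.6 and 11.5 CPM per kilobase. Receptors for hormones that enter from the blood were led by the thyroid hormone receptor Thra at 127 ± 11 and the glucocorticoid receptor Nr3c1 at 34.2 ± 0.89 CPM per kilobase, with Nr3c2 at 7.93, Esr1 at 0.565 and Esr2 at 0.163 CPM per kilobase. The neurotrophin receptor Ntrk2 had 62.0 ± 1.5 CPM per kilobase, and its ligand Bdnf 9.14 ± 1.8 CPM per kilobase.

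Astrocyte genes were high and, with 1 exception, steady. All 19 listed genes reached 1 CPM in every library, their median level was 58.3 CPM per kilobase and their median range 1.20-fold. Apoe had 719 ± 103, Glul 634 ± 43, Clu 378 ± 42, Slc1a2 291 ± 39 and Slc1a3 158 ± 2.5 CPM per kilobase (SD, n = 4). The exception was Gfap (chromosome 11, 102887336 to 102900912), the intermediate filament of reactive astrocytes, at 93.2, 188, 317 and 351 CPM. Gfap was lowest in Adnp-set 1 and highest in Pogz-set 2, a range of 3.75-fold. Vim, another intermediate filament, ran in the same order, at 29.0, 44.4, 70.8 and 93.1 CPM, as did Serpina3n at 18.2, 23.4, 34.0 and 45.1 CPM. Of the 12 reactive astrocyte genes with a mean of at least 1 CPM, 6 spread over 2-fold, 3 without Adnp-set 1 and 3 without Pogz-set 2. Of the 12, 10 reached 1 CPM in every library, and over all genes with such a mean 5.32% spread over 2-fold.

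Myelin genes had a median of 44.4 CPM per kilobase over 18 oligodendrocyte genes. Among them were Mbp at 193 ± 33, Cnp at 107 ± 21 and Trf at 96.1 ± 24 CPM per kilobase (SD, n = 4). None spread over 2-fold, but Adnp-set 2 was the highest library in 14 of the 18. Mal stood at 148, 240, 132 and 166 CPM, and Mobp at 134, 209, 138 and 164 CPM. The summed CPM of the list was 3204, 4707, 3332 and 3768, and the median range was 1.504-fold with and 1.24-fold without Adnp-set 2. Genes of oligodendrocyte precursors did not have this spread, with Pdgfra at 80.1, 82.6, 87.9 and 82.0 CPM and a median range of 1.19-fold over 11 genes. Of 16 endothelial genes 1 spread over 2-fold. At a median of 1.18-fold the endothelial genes were similarly steady, with Cldn5 at 28.7 and Slc2a1 at 19.9 CPM per kilobase. Genes of smooth muscle were less so, with Acta2 at 8.86, 13.02, 13.2 and 26.1 CPM and Myh11 at 9.45, 13.6, 17.6 and 28.9 CPM.

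Most genes differed little among the 4 controls. Over the 14442 genes with a mean of at least 1 CPM, the highest library exceeded the lowest by a median of 1.23-fold, and the median coefficient of variation was 9.61%. A total of 768 genes (5.32%) spread over 2-fold. This share depended on abundance, being 17.3% of genes with 1 to 5 CPM and 0.631% of those with 100 CPM or more. It was 1.16% at 20 to 100 CPM, so that 0 genes over 2-fold does not set a short list of abundant genes apart. The common biological coefficient of variation estimated by edgeR was 0.184. Libraries did not contribute equally. Of the 768 genes, 593 were lowest in Adnp-set 1, 563 were highest in Pogz-set 2, and 484 (63.0%) were both, whereas over all genes 28.0% were lowest in Adnp-set 1 and 22.2% highest in Pogz-set 2. With Adnp-set 1 left out, and genes and scaling kept, 367 of the 14442 genes (2.54%) spread over 2-fold, and with Pogz-set 2 left out 512 (3.55%). On a multidimensional scaling of the 4 libraries the first axis, with 59.6% of the spread, ran from Adnp-set 1 at 1.84 through Adnp-set 2 at -0.01 and Pogz-set 1 at -0.58 to Pogz-set 2 at -1.25.

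**Figure D3:**
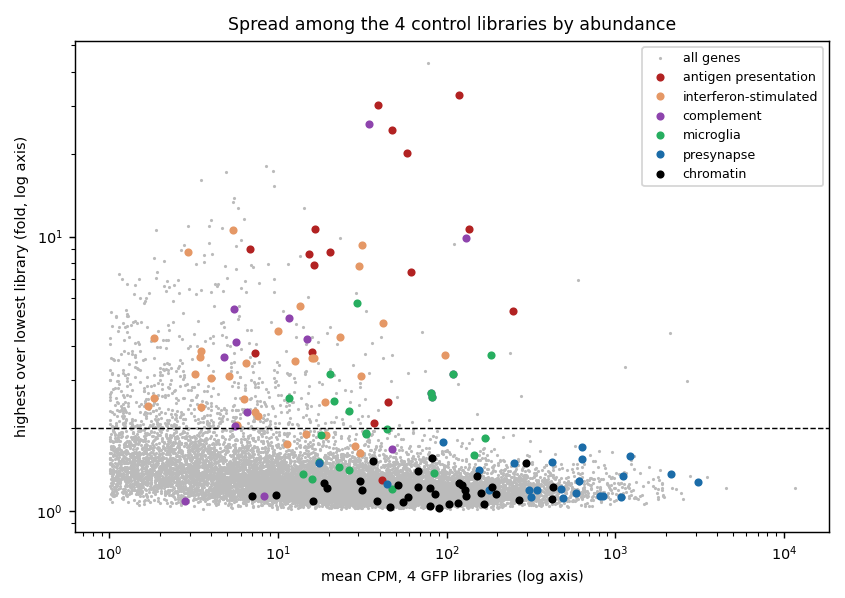
Highest over lowest GFP library of each gene (log axis) against its mean CPM (log axis) for the 14442 genes with a mean of at least 1 CPM, with 6 gene lists coloured and the 2-fold line dashed. Above the line lie 16 of 17 antigen presentation genes, 28 of 33 interferon-stimulated genes and 12 of 15 complement genes. Most other genes of similar level do not, and presynaptic and chromatin genes lie below it.

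The widest ranges belonged to genes of immune cells and antigen presentation. Of the 20 genes of widest range with a mean of at least 5 CPM, Igj, the joining chain of secreted antibodies, came first at 2.81, 30.1, 142 and 134 CPM, a range of 43.0-fold. Cd74, the invariant chain of class II histocompatibility molecules, stood at 7.07, 104, 114 and 248 CPM. The class II genes H2-Ab1, H2-Eb1 and H2-Aa had 2.28, 37.0, 33.2 and 83.5 CPM, then 3.56, 44.1, 42.2 and 99.2 CPM, then 5.11, 56.6, 59.7 and 112 CPM. In each of these 5 genes Adnp-set 1 was lowest by more than 10-fold, while the other 3 libraries did not overlap with it. C3, the central component of complement, had 2.03, 31.4, 39.8 and 65.0 CPM. The T cell attracting chemokines Cxcl9 and Ccl5 had 0.423, 14.8, 6.57 and 15.5 CPM and 0.504, 4.78, 5.58 and 12.3 CPM. Others among the 20 were the leukocyte integrins Itgal and Itgax, the lymphocyte GTPase Gimap4, the leukocyte surface protein Cd52, the monocyte antigen Ly6c2, the class I regulator Nlrc5 and the interferon-induced GTPase Iigp1. Histocompatibility genes have near-identical copies and so do C4b and C4a, and their values are uncertain to that extent.

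The lists that hold these genes had many members of wide range, against 5.32% of all genes over 2-fold. Their counts are not independent of the choice, since they include genes named above for wide range. The antigen presentation, complement and interferon-stimulated lists were also chosen with earlier results of these data known. Of 17 antigen presentation genes, 16 spread over 2-fold, with a median range of 8.62-fold, and all 17 were lowest in Adnp-set 1. Their summed CPM was 246, 861, 920 and 1698. Without Adnp-set 1, 11 of the 17 spread over 2-fold with a median of 2.08-fold. B2m (chromosome 2, 122147686 to 122153083), the shared light chain of class I molecules, stood at 80.5, 215, 263 and 432 CPM. Psmb10 was the steady member, at 34.3, 44.0, 43.5 and 44.7 CPM. Of 15 complement genes with a mean of at least 1 CPM, 12 spread over 2-fold and 4 did so without Adnp-set 1. The initiating subunits C1qa, C1qb and C1qc, which microglia make, had 47.8, 95.2, 145 and 152 CPM, 38.9, 76.6, 106 and 100 CPM, and 40.9, 74.5, 103 and 107 CPM. The membrane inhibitors Cd55 and Cd59a had ranges of 1.14-fold and 1.09-fold.

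Interferon-stimulated genes, which cells switch on through STAT and IRF factors in response to interferons, were low in Adnp-set 1 and closer together in the other 3 libraries. All 33 measured genes were lowest in that library, 28 spread over 2-fold with a median of 3.16-fold, and without Adnp-set 1 only 4 of the 33 did, with a median of 1.32-fold. Irf7, the factor that amplifies the response, had 3.46, 17.2, 12.1 and 21.6 CPM, and Ifit3 had 11.9, 36.9, 37.6 and 37.9 CPM. The GTPases Gbp2 and Igtp, which defend against intracellular pathogens, had 5.84, 35.9, 25.4 and 58.6 CPM and 6.67, 32.8, 25.4 and 55.7 CPM.

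**Figure D4:**
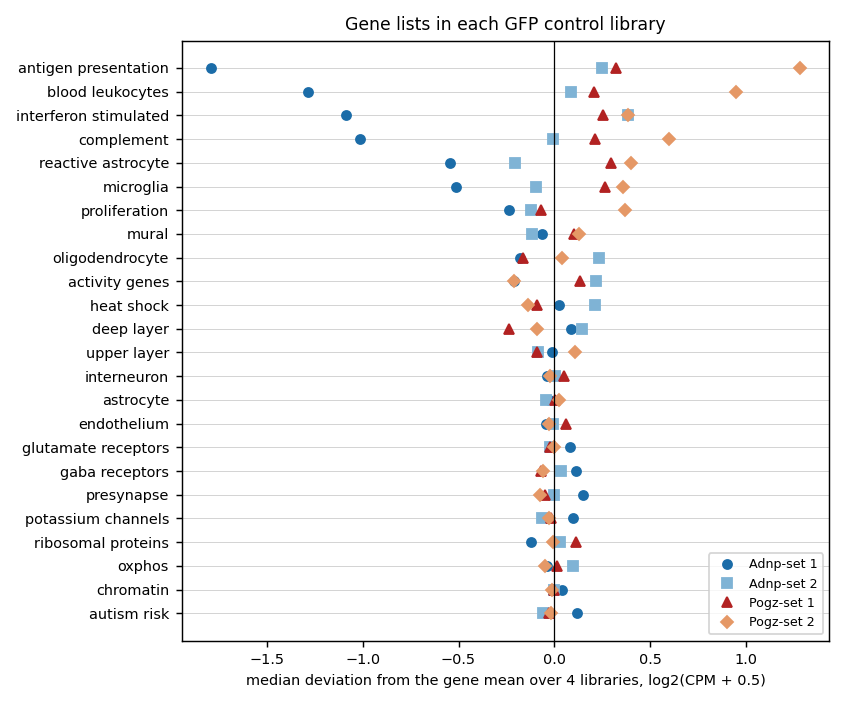
Median deviation of the genes of each list from their own mean over the 4 GFP libraries, on the scale of log2(CPM + 0.5), 1 symbol per library. Antigen presentation, blood leukocyte, interferon-stimulated and complement genes lie lowest in Adnp-set 1, at -1.79, -1.28, -1.09 and -1.01, and the lists of glutamate and GABA receptors, potassium channels, presynapse and chromatin stay within 0.15 of 0.

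Microglial genes had narrower ranges than the antigen presentation genes. The summed CPM of 22 microglial markers was 786, 1118, 1450 and 1587, and 18 of the 22 were lowest in Adnp-set 1. The spread was uneven among the markers, whose median range was 1.91-fold. P2ry12 was at 44.5, 43.4, 52.0 and 50.7 CPM, Cx3cr1 at 69.8, 76.5, 96.2 and 92.3 CPM and Siglech at 19.1, 21.8, 24.1 and 27.7 CPM. Ctss, a protease that processes antigens, stood at 75.8, 166, 213 and 283 CPM, and the pan-leukocyte gene Ptprc at 9.23, 23.03, 29.7 and 55.5 CPM. Of the 22 genes 9 spread over 2-fold, and 2 did so without Adnp-set 1.

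Genes of blood leukocytes were low in all libraries. Their median level over 16 genes was 0.626 CPM per kilobase. Their summed CPM was 16.3, 33.5, 36.9 and 62.1, and 6 of the 8 with a mean of at least 1 CPM spread over 2-fold. Of those 8, 7 were lowest in Adnp-set 1 and 7 highest in Pogz-set 2. Only 4 of the 8 reached 1 CPM in every library. A limit on the mean admits such genes through their high libraries, so these counts are not independent of it. Of all genes with 1 to 5 CPM, 17.3% spread over 2-fold. The monocyte receptor Ccr2 had 0.8292, 2.99, 5.65 and 9.89 CPM. The T cell genes Cd3e and Cd8a had 0, 0.173, 0.494 and 1.28 CPM and 0.0813, 1.57, 1.02 and 1.52 CPM. The neutrophil genes S100a8 and S100a9 stayed under 0.5 CPM, and macrophage markers of vessels and meninges such as Mrc1, at 8.81, 13.1, 13.9 and 14.4 CPM, and Cd163, at 2.11, 2.19, 2.05 and 2.88 CPM, differed less. The part of leukocytes in the wide ranges of the antigen presentation, complement and interferon-stimulated genes was not tested. Of 11 proliferation genes with a mean of at least 1 CPM, 8 were highest in Pogz-set 2 and 4 spread over 2-fold, among them Mki67 at 3.98, 7.09, 8.09 and 23.6 CPM and Top2a at 1.84, 4.83, 4.13 and 17.6 CPM.

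The promoters of the variable genes were compared with those of the steady genes. RefSeq promoter windows of build GRCm38.p6, from 250 bases before to 50 bases after the first listed transcription start, were found for 10605 of the 14442 genes. The interferon-stimulated response element, searched on both strands as GAAA, any 2 bases and GAAA again, was in 15 of the 24 windows of interferon-stimulated genes (62.5%) against 2.91% of all windows. Among genes with a mean of at least 5 CPM, it was in 6.01% of the 882 windows of widest range and in 1.02% of the 882 of narrowest range. Between these ends, the 8 groups of windows ordered by range held it in 1.70% to 3.75%, in no steady order. It was also in 2 of 12 windows of antigen presentation genes, in 1 of 9 found for the 20 genes of widest range, in 2 of 18 of presynaptic genes and in 7 of 57 of ribosomal protein genes. These windows differed in base composition too, with a median ratio of observed to expected CpG of 0.624 in the windows of widest and 0.818 in those of narrowest range. A match is a description of the letters, not of a bound site. The 6 interferon-stimulated genes of widest range with a mean of at least 5 CPM and a match in the last 150 bases before the start are shown together with B2m, because they carry the difference of Adnp-set 1 from the other libraries. Each line gives those 150 bases, 5′ to 3′ on the strand of the gene, with the response element in capitals (TTTC marks the element on the opposite strand).
Gbp2, chr3:142620513-142620662, plus strand: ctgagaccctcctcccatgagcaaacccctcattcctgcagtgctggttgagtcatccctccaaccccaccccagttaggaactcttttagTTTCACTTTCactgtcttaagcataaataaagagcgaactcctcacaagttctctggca
Igtp, chr11:58199406-58199555, plus strand: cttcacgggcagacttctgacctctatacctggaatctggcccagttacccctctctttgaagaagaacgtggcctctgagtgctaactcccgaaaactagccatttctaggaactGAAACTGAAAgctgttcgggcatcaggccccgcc
Irgm1, chr11:48871421-48871570, minus strand: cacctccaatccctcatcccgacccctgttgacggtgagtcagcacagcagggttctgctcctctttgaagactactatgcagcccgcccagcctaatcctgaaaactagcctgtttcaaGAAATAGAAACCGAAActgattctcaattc
Bst2, chr8:71537473-71537622, minus strand: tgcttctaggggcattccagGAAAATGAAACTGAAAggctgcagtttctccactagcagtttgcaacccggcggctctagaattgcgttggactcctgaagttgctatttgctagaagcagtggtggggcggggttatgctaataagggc
Gbp3, chr3:142559894-142560043, plus strand: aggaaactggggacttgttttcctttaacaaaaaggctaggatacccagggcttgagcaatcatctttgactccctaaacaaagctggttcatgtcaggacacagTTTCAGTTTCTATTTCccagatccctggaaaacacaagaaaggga
Ifit1, chr19:34640739-34640888, plus strand: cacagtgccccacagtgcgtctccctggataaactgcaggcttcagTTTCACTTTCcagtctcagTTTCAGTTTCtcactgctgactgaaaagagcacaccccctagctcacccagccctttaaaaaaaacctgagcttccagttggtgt
B2m, chr2:122147537-122147686, plus strand: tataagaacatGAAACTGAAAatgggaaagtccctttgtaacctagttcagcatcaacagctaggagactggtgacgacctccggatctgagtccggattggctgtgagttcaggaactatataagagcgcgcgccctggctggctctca

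The elements lay at different distances from the start. The match nearest the start ended 14 bases before it in Irgm1, 24 in Igtp, 29 in Gbp3, 49 in Gbp2, 75 in Ifit1, 114 in Bst2 and 129 in B2m. Irgm1, Bst2, Gbp3 and Ifit1 held 2 matches each, which overlapped in Irgm1, Bst2 and Gbp3. The highest library exceeded the lowest by 9.33-fold in Gbp2, 7.84-fold in Igtp, 5.34-fold in B2m, 4.84-fold in Irgm1, 4.51-fold in Bst2, 4.32-fold in Gbp3 and 3.60-fold in Ifit1.

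Genes induced by neuronal activity had another order of libraries. Of 23 listed immediate early and late response genes, 0 were highest in Pogz-set 2 and 12 were lowest in Adnp-set 1, and their median range was 1.56-fold. Arc (chromosome 15, 74669083 to 74672570), which encodes a regulator of AMPA receptor traffic, stood at 184, 476, 256 and 182 CPM, so that Adnp-set 2 alone was high. Junb, Fos and Nr4a1 were likewise highest in Adnp-set 2, at 35.9, 74.2, 54.5 and 43.2 CPM, at 26.7, 51.1, 38.9 and 27.1 CPM, and at 59.8, 105, 72.2 and 55.2 CPM. Nptx2 and Ptgs2 were highest in Pogz-set 1, at 60.3, 77.8, 103 and 62.1 CPM and at 22.0, 26.7, 46.4 and 27.2 CPM. Of the 23 genes 4 spread over 2-fold, 1 without Adnp-set 1 and 1 without Adnp-set 2.

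The cAMP response element, through which CREB acts, was searched as the palindrome of TGAC followed directly by GTCA. It was in 3.14% of all windows and in 4.52% of the 1061 windows of highest mean CPM against 1.60% of the 1061 of lowest. These windows differed in base composition too, with a median ratio of observed to expected CpG of 0.805 in the highest and 0.471 in the lowest. The palindrome itself holds a CG, and a link of the element to level was not tested. Its share among neuropeptide windows was not computed. In the neuropeptide list the 3 genes of highest level with a match in the last 150 bases before the start were Chgb, Scg2 and Sst, whose levels are given above. They are shown because they were among the 5 most abundant genes of the list per kilobase, and their ranges were 1.48-fold, 1.47-fold and 1.27-fold. The element is in capitals, in windows laid out as before.
Chgb, chr2:132781492-132781641, plus strand: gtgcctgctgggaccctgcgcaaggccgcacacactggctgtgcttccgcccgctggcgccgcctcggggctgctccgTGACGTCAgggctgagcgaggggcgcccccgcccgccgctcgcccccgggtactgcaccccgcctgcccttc
Scg2, chr1:79440027-79440176, minus strand: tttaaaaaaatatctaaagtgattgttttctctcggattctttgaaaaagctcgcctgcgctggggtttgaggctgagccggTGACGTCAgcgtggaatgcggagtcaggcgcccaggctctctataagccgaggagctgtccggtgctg
Sst, chr16:23890845-23890994, minus strand: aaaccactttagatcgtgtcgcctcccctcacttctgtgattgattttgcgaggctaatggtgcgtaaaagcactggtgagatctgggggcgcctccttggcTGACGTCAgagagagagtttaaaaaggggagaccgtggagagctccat

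**Figure D5:**
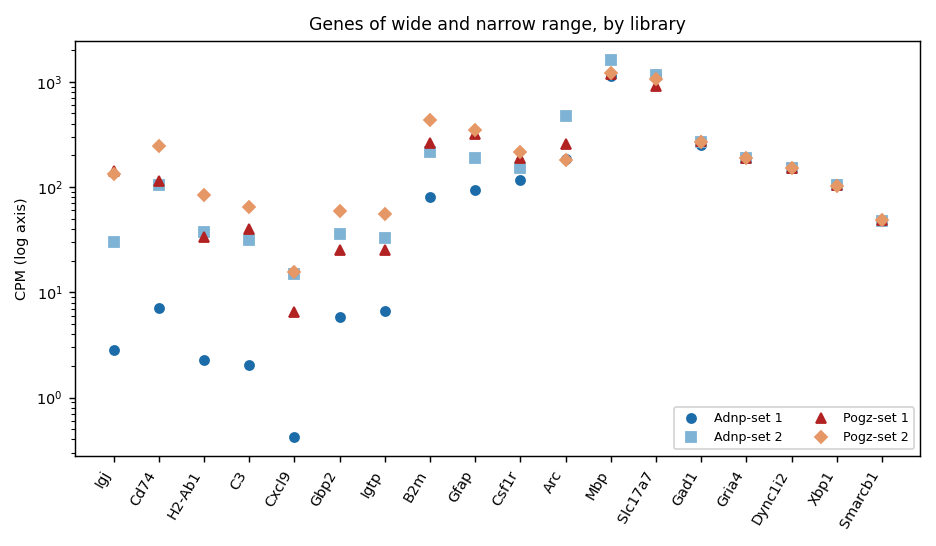
CPM (log axis) of 18 genes in each GFP library, ordered from genes of wide range on the left to genes of narrow range on the right. Adnp-set 1 is lowest for the first 10, from Igj at 2.81 to Csf1r at 117 CPM, Adnp-set 2 is highest for Arc and Mbp, and the 4 symbols coincide for Gria4, Dync1i2, Xbp1 and Smarcb1.

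Some genes had nearly identical CPM in the 4 libraries. The genes named here were picked for the narrowest range, so that their small ranges follow from that choice. Whether they would be as close in other libraries was not tested. Among genes with a mean of at least 20 CPM the narrowest range was that of the dynein intermediate chain Dync1i2, at 153, 153, 152 and 152 CPM. The AMPA receptor subunit Gria4 followed at 189, 190, 189 and 187 CPM. The metalloprotease Adam9, the chromatin remodelling subunit Smarcb1, the stress response factor Xbp1 and the cohesin-related Smc6 had ranges of 1.02-fold. None of the 16 promoter windows found for the 20 genes of narrowest range held the TATA box hexamer TATAAA. It was in 7.06% of all windows, and with only 16 windows a count of 0 is not set apart from that share. Among genes with a mean of at least 5 CPM, it was in 5.90% of the 882 windows of narrowest range and in 6.49% of all. The median ratio of observed to expected CpG in the 16 windows was 0.868.

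Chromatin regulators had a median range of 1.16-fold, against 1.23-fold over all genes, and 0 of 35 genes spread over 2-fold. Of all 14442 genes 5.32% did so, and 1.16% of genes with 20 to 100 CPM, so that this count does not set the list apart. The median range in log2 was 0.219, against 0.246 for genes with 20 to 100 CPM and 0.241 at 100 CPM or more. The genes targeted in the hairpin arms of the study were examined in these controls for their level. Adnp (chromosome 2, 168180986 to 168207112, GRCm38), a homeodomain zinc finger gene, stood at 136, 110, 115 and 135 CPM, or 24.3 ± 2.7 CPM per kilobase (SD, n = 4). Pogz (chromosome 3, 94837567 to 94882326), which binds the HP1 proteins, had 55.4, 44.3, 54.3 and 53.2 CPM, or 8.09 ± 0.79 CPM per kilobase. Ash1l (chromosome 3, 88950622 to 89079375), the histone methyltransferase that the treatment label of the hairpin groups names, had 362, 297, 242 and 288 CPM, or 26.4 ± 4.4 CPM per kilobase, within the spread of Adnp. For the 3 genes the median over all detected genes is 8.88 CPM per kilobase, so that Adnp and Ash1l stood above it and Pogz near it. Of the HP1 genes, Cbx5 had 47.9, Cbx1 15.5 and Cbx3 9.92 CPM per kilobase. The NuRD subunit Chd4, which ADNP binds, had 40.1 ± 2.0, and the related gene Adnp2 7.71 ± 0.30 CPM per kilobase. The 27 genes of the autism risk list in the files had a median of 20.02 CPM per kilobase and 0 spread over 2-fold, with Scn2a1 at 108 and Chd8 at 19.6 CPM per kilobase.

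The only division of the controls that the labels give is the set. Of 16981 genes tested between the Pogz-set and Adnp-set controls with edgeR's quasi-likelihood test, 1 (0.00589%) passed a Benjamini-Hochberg adjusted p of 0.05, and it was higher in the Pogz set. No gene (0%) was called lower. An unadjusted p under 0.05 was given to 1771 genes, and DESeq2 called 194 and limma-voom 2. The called gene was Wdfy1 (chromosome 1, 79702262 to 79776143), an endosomal adaptor gene, at 20.7, 17.9, 64.5 and 65.7 CPM, so that the sets did not overlap (log2 fold change 1.76, SE 0.11, edgeR adjusted p = 0.00428). The call was lost without Pogz-set 1 (edgeR adjusted p = 0.231) or Pogz-set 2 (edgeR adjusted p = 0.0565), at log2 fold changes of 1.75 and 1.72. Nnt, a mitochondrial transhydrogenase gene that carries a deletion in C57BL/6J and not in C57BL/6N mice, stood at 25.8, 27.95, 41.9 and 51.1 CPM and did not pass (log2 fold change 0.79, SE 0.13, edgeR adjusted p = 0.178), although its sets did not overlap. It passed with DESeq2 (adjusted p = 0.000143), with the replicate number as a block (edgeR adjusted p = 0.0175) and without Adnp-set 2 (edgeR adjusted p = 0.0303). With 2 residual degrees of freedom the test rests on a spread shared across genes.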

How the data were processed

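RNA of bulk prefrontal cortex was sequenced from total RNA after removal of ribosomal RNA with a strand-keeping kit, from 1 µg of input, per the labels' protocols. The authors deposited raw counts per gene symbol for the 8 libraries. The labels' protocol names Cutadapt and TopHat2, whereas the submitters' processing notes name STAR, featureCounts, DESeq2 and mm10, and neither says how strand or reads matching several genes were handled. Rows whose name had become a date number (25) or was blank (2) were left out; the date rows held 0.314% to 0.337% of the counts of a library.

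From the counts, CPM values were computed with edgeR 4.0.16 (R 4.3.3, TMM scaling over the 4 GFP libraries) and divided by the exon length of the GENCODE annotation of GRCm38. The set contrast used edgeR's quasi-likelihood test after a filter with a minimum count of 10, with Benjamini-Hochberg adjustment. Alternatives were DESeq2 1.42.0, limma-voom (limma 3.58.1), other scalings, filters and thresholds, a replicate block and leaving out each library. On simulated data with known changes the test found most of them, and its false calls exceeded the nominal share. Named genes were members of gene lists, the 25 most abundant genes, the 20 genes of highest CPM per kilobase, the 20 of widest and the 20 of narrowest range, genes passing the set contrast, and Adnp, Pogz and Ash1l. Some genes of these lists are not reported here. Members and lists were chosen with earlier results of these data known. The labels call the samples biological duplicates and the design text speaks of 2 GFP mice, so that it is not known whether the 4 libraries came from 4 mice. No pair of libraries agreed within sampling noise, and p-values measure only the spread between these samples.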

Additional observations from a re-analysis of the deposited data

Results flagged for a closer look

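A value of 1 library was set apart when its gap to the nearest of the other 3 relative to the whole range exceeded Dixon's critical value for 4 samples at 95%, a limit that chance passes in about 1 of 20 groups of 4. Of 308 values examined, which are the total count, summed CPM of the gene lists and the CPM of the genes named in the report, 23 passed it.

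Pogz-set 1 had the lowest total count, 27501722. It also stood apart in the CPM of Rmrp with 420, Tshz2 with 90.7, Gabra2 with 66.4, Gabra4 with 146, Grm3 with 217 and the retinal receptor Grm6 with 0.141, and in the summed CPM of olfactory bulb markers with 15.4. Rmrp, Grm3 and Gabra4 were low in that library, and Tshz2, Gabra2 and Grm6 were high. The Grm6 value lay close to the floor of 3 counts, which is 0.106 CPM in that library.

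Adnp-set 1 stood apart through high values in the summed CPM of chromatin genes with 4192 and of autism risk genes with 8149. It also stood apart in the CPM of Adnp2 with 40.9, Dlg2 with 584, Gabrg3 with 23.3, Gad1 with 252, Htr3a with 5.46, Ifit3 with 11.9 and Psmb10 with 34.3. Of these, Gad1, Htr3a, Ifit3 and Psmb10 were lowest there and the others highest. Adnp-set 2 stood apart in the CPM of Mbp with 1623, which was high, and of the narrow-range gene Adam9 with 87.1. Pogz-set 2 stood apart in the summed CPM of proliferation genes with 192 and adrenergic receptors with 115, and in the CPM of Cd163 with 2.88 and Gabrr1 with 0.228.

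Counts were also present in rows that carry a date number in place of a gene name, a form that spreadsheets give to symbols of the septin and March families. They reached 0.337% of the counts of a library and could not be tied to genes.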

How the results depend on the processing

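The count of genes called between the control sets depended on the test. It was 1 with edgeR and also 1 with other scalings or with all 8 libraries in the fit, 194 with DESeq2 (136 higher and 58 lower in the Pogz set), 2 with limma-voom, 23 without a low-count filter and 9 at an adjusted p of 0.1. Leaving out single libraries gave 0 to 278 calls, the lone library of a set then being assumed to vary like the others; the highest count came without Adnp-set 2. With the replicate number as a block it was 124 (116 higher and 8 lower). The labels do not say that a number pairs libraries, and the deviations of same-numbered libraries from their set means correlated at 0.22 over genes, with only 2 pairs. The cause of these changes was not tested.

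Genes spread over 2-fold numbered 768, against 315 at 3-fold, 313 among genes with a mean of 5 CPM or more, and 392 to 724 when single libraries were left out and the rest scaled again. The lowest count came without Adnp-set 1, and 449 were counted without Pogz-set 2. Other scalings gave 758 and 776. Leaving out a library without rescaling, a check chosen after seeing the data, can only lower a count over 2-fold. It did so by over 1.5 times in 7 of 28 counts of the 7 gene lists with any such gene, and the report gives those 7. The 4 lists at 0 could not change. The number of detected genes (11342 to 14719) and the share of the top 100 genes (15.19% to 15.59%) kept within their limits. Depth limits genes under 1 CPM, most of all in Pogz-set 1.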

Other observations

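Genes often used to scale expression were not equally steady. Of 18 listed reference genes 1 spread over 2-fold, B2m, at 80.5, 215, 263 and 432 CPM. Gusb, a lysosomal enzyme, followed at 11.7, 13.7, 15.1 and 21.4 CPM. Eef2 and Actb had ranges of 1.11-fold and 1.22-fold. Transcripts with many near-identical copies in the genome were low, with Gapdh between 7.42 and 8.24 CPM and Ppia between 4.41 and 5.04 CPM, and such values are uncertain because the handling of shared reads is not given.

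Metabolic genes had ranges like those of other abundant genes. Glycolytic genes had a median of 150 CPM per kilobase and a median range of 1.18-fold over 18 genes, and genes of oxidative phosphorylation 80.5 CPM per kilobase and 1.18-fold over 79 genes. In log2 these median ranges were 0.234 and 0.242. Genes with 20 to 100 CPM had 0.246 and those with 100 CPM or more 0.241, so that neither list is set apart. Among the oxidative phosphorylation genes only Cox6b2, a testis-type subunit, spread over 2-fold, at 0.423, 0.975, 3.81 and 1.42 CPM. The cholesterol synthesis gene Hmgcs1 was lowest in Pogz-set 1, at 456, 507, 337 and 437 CPM.

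The inducible chaperone gene Hspa1b stood at 3.53, 5.52, 9.36 and 2.53 CPM, while the constitutive Hsp90ab1 had a range of 1.23-fold. Hspa1b has a near-identical neighbour, Hspa1a, and its values are uncertain to that extent. Of 15 clock genes 0 spread over 2-fold, against 5.32% of all genes, and their median range was 1.31-fold, the widest being Dbp at 12.7, 13.3, 17.1 and 24.1 CPM and the next Per2 at 27.3, 29.8, 45.8 and 37.7 CPM. The hour of tissue collection is not given in the sources used here. The imprinted gene Nap1l5 stood at 275, 290, 442 and 245 CPM, high in Pogz-set 1, and the imprinted non-coding RNA Meg3 at 1423, 912, 1385 and 1444 CPM, low in Adnp-set 2. The Y-linked gene Ddx3y was at 107, 118, 117 and 90.1 CPM, so that all 4 libraries held RNA of male mice.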
